A study of Mus musculus with 10 samples.

Results

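The genes Nodal, Lefty1, Lefty2 and Tdgf1 were examined through the open chromatin sites that lie around them in 4 mouse cell types. Sites were taken from 3 intervals of mouse build mm9 that were set by position. These run from 60860000 to 60910000 on chromosome 10 for Nodal, from 182810000 to 182885000 on chromosome 1 for Lefty2 with Lefty1, and from 110825000 to 110865000 on chromosome 9 for Tdgf1. A site belonged to an interval where it shared at least 1 bp with it. The intervals held 240 of the 1816946 sites in all lists, of which 108 came from the ESC list, 66 from EpiSC, 40 from NSC and 26 from MEF. By interval, 74 sites lay at Nodal, 92 at Lefty2 and Lefty1 and 74 at Tdgf1.

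Open chromatin had been mapped by FAIRE-seq, which fixes cells with formaldehyde, shears the chromatin and recovers, by phenol extraction, the DNA that carries few nucleosomes. ESC were embryonic stem cells of the E14 line (ES-E14Tg2a), grown in N2/B27 medium with the MEK inhibitor at 1 uM, the GSK3 inhibitor at 3 uM and LIF at 1000 U/ml. EpiSC were epiblast stem cells of the E3 line, expanded on mitomycin-treated fibroblast feeders in medium conditioned by fibroblasts with FGF2 at 5 ng/ml, and kept without feeders for the last 2 days. NSC were neural cells that had been made from ES cells, kept in N2B27 with FGF2 and EGF at 10 ng/ml each. MEF were fibroblasts of E16.5 embryos in DMEM with 10% serum; their source label says NSC, but title and cell type both give fibroblasts. ESC and EpiSC each stand for 1 line. The labels give 10 samples in 5 groups of 2, the last group being sheared genomic DNA, and 1 site list per cell type was analysed. The depth behind each list is unknown, no list has a replicate, and no difference between cell types was tested. The lists hold no expression values, so the cell types were not checked against marker genes.

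Nodal is a secreted ligand of the TGF-beta family. It acts through activin receptors together with Cripto, the coreceptor encoded by Tdgf1, and its signal reaches the nucleus through SMAD proteins that bind DNA with partners such as FOXH1. Lefty1 and Lefty2 are secreted antagonists of Nodal and are themselves targets of the pathway, as is Nodal, so that the signal feeds back on itself. In the mouse embryo the pathway acts in the epiblast and later in the making of mesendoderm and of the left side of the body, and in culture it is known for holding EpiSC in the primed state. None of the media named in the labels lists Nodal or activin as an additive. The EpiSC medium was conditioned by fibroblasts, so this does not show whether such a ligand was present in it.

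In RefSeq on GRCm38.p6 the nearest protein-coding genes are Pald1 and Eif4ebp2 on either side of Nodal, and Fam240a and Lrrc2 on either side of Tdgf1. That build differs from mm9, so sites could not be placed on promoters, exons or introns, and a site here is near a gene by interval and is not assigned to it. Of the 4 genes, 2 were matched in the RefSeq promoter table, which gives 250 bases before to 50 after each gene's start. They are printed to show the letters that pathway factors could read there. The Nodal window, on GRCm38.p6 at chr10:61417722-61418021 on the plus strand, and the Tdgf1 window, at chr9:110946109-110946408 on the minus strand, are given 5′ to 3′ with motif matches in capitals.
Nodal: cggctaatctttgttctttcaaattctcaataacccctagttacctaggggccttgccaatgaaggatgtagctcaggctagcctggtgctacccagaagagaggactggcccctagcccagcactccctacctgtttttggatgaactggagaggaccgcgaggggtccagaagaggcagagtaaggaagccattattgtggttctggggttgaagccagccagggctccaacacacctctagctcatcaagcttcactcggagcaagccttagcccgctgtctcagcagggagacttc
Tdgf1: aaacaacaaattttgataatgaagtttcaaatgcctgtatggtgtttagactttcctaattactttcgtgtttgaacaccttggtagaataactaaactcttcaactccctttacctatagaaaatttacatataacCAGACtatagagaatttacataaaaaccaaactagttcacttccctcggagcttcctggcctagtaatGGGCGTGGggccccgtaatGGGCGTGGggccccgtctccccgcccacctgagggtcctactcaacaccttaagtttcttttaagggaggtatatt
The motifs searched on both strands were CAGAC for SMAD, the spellings AATCCACA, AATACACA, AATCAACA and AATAAACA for FOXH1, CTTTGA for TCF/LEF, GGGCGTGG for KLF/SP and TATAAA for the TATA box, none overlapping another in these windows. The Tdgf1 window held 1 SMAD match and 2 KLF/SP matches. The Nodal window held no match to any of these spellings. Among the 32851 promoters of the table, 49.6% held the SMAD letters, 4.40% a FOXH1 spelling, 16.0% the TCF/LEF letters, 5.33% the KLF/SP letters and 13.6% the TATA letters. GC content was 54.0% in the Nodal window and 41.7% in the Tdgf1 window, against a median of 52.7% over the table. A match is a run of letters and was not tied to any site of the lists.

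All 3 intervals were widely open in ESC and EpiSC and far less so in MEF, where cover lay between 0.739 and 1.39 times that of the autosomes. ESC sites covered 47.1% of the bases at Nodal, 49.7% at Lefty2 and Lefty1 and 55.6% at Tdgf1, against 9.14% of all autosomes. EpiSC sites covered 32.1%, 31.4% and 45.0% of the same intervals, against 7.02% of autosomes. NSC covered 16.4%, 12.0% and 18.9%, against 10.0% of autosomes, and MEF 4.94%, 9.29% and 5.79%, against 6.69%. The order ESC, EpiSC, NSC, MEF by covered bases was the same in the 3 intervals. In the whole lists NSC covered more of the autosomes than ESC, and ESC more than EpiSC. The depth and threshold of each list are unknown. With lists of equal length ESC still had more sites than EpiSC in each interval, 32 against 18 at Nodal, 40 against 26 at Lefty and 28 against 22 at Tdgf1.

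**Figure D1:**
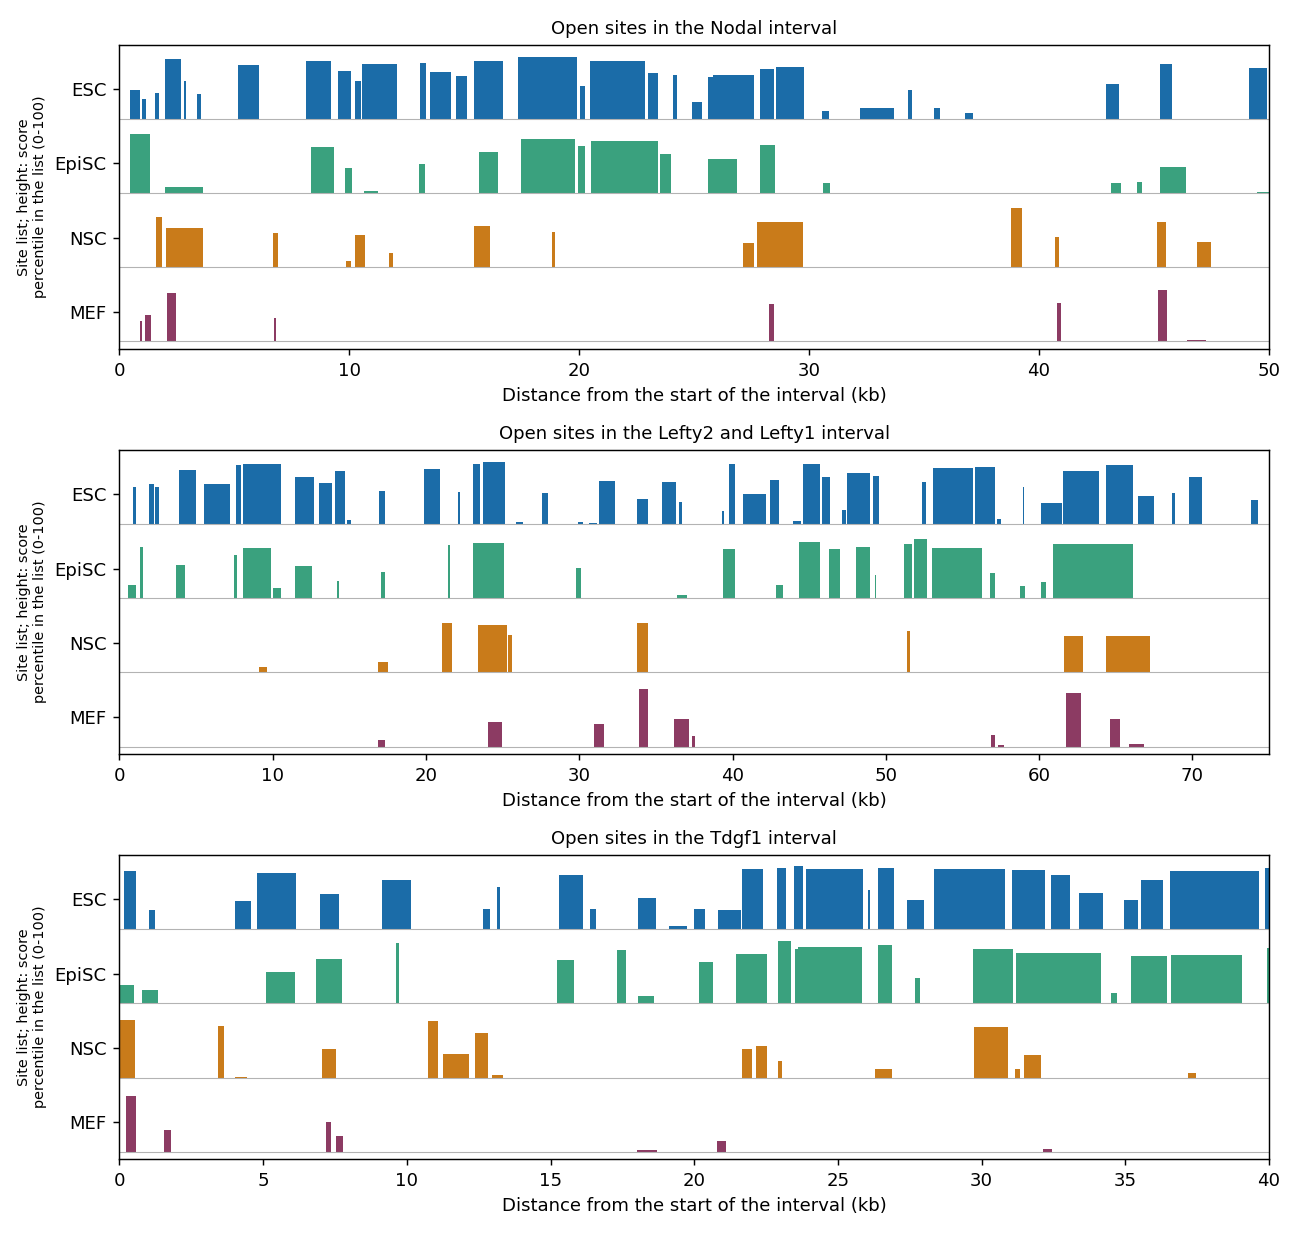
Open sites along the 3 intervals, with the distance from the start of the interval in kb on the horizontal axis and 1 row per site list; each block is a site, and its height is the percentile of its score within its own list. ESC and EpiSC blocks fill the middle of the Nodal interval and the latter part of the Tdgf1 interval, where MEF has stretches of 21426 and 11044 bp without a site.

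**Figure D2:**
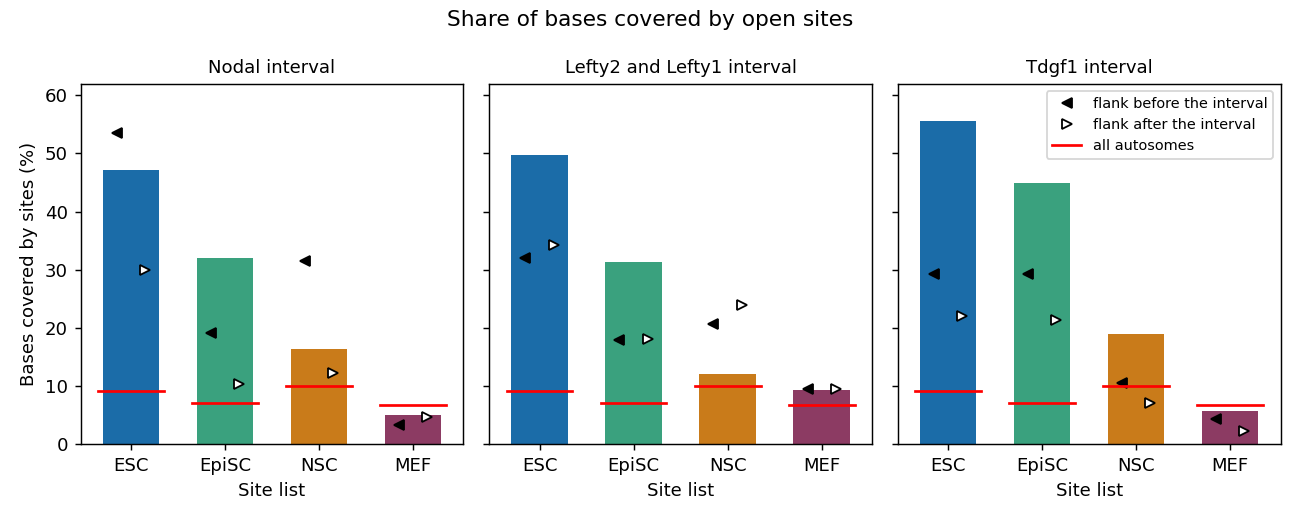
Percent of bases covered by sites in each interval (bars), in stretches of the interval's own length before and after it (black and white triangles) and over all autosomes (red lines), for each site list. At Tdgf1 the ESC and EpiSC bars, 55.6% and 45.0%, stand above both flanks, whereas at Nodal the ESC flank before the interval, at 53.5%, is above the bar.

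Nodal, the ligand, had 33 ESC sites, 18 EpiSC sites, 15 NSC sites and 8 MEF sites. Of the 49434 autosomal windows of the same length, 1.59% held at least 33 ESC sites, 9.92% at least 18 EpiSC sites, 32.5% at least 15 NSC sites and 51.7% at least 8 MEF sites. ESC were thus in the upper tail of their own list and MEF in the middle of theirs. By covered bases EpiSC moved up, with 1.28% of windows covered as widely, and so did NSC with 21.2%, while ESC (1.52%) and MEF (53.2%) stayed near their rank by number. On chromosome 10 alone 6.50% of windows held as many EpiSC sites. With 5 kb taken off each end of the interval, MEF kept 3 sites. The wide openness of ESC was not confined to the interval: the 50001 bp before it held 30 ESC sites covering 53.5% of the bases, and the 50001 bp after it 25 covering 29.9%. EpiSC covered 19.2% of the stretch before and 10.4% of the stretch after, both below the 32.1% of the interval. NSC covered 31.6% of the stretch before, more than the 16.4% of the interval, and 12.3% of the stretch after. MEF covered 3.31% and 4.68% of the 2 stretches, against 4.94% of the interval.

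Much of the openness of the pluripotent cells at Nodal lay in the middle of the interval. The 3 bins of 5 kb from 60875000 to 60889999 were covered by ESC sites to 79.4%, 66.0% and 83.3%, and by EpiSC sites to 64.4%, 72.1% and 39.0%. NSC covered 16.6%, 0% and 49.5% of these bins, and MEF 0%, 0% and 4.7%. Other bins were also widely open, with 68.3% of the bin from 60870000 in ESC and 49.9% of the first bin in EpiSC. The bin from 60880000 to 60884999 was thus open in both pluripotent lists and held no site of NSC or MEF. The highest-scoring ESC site, 60877326 to 60879911, was also the widest with 2586 bp, and its score of 12.9 lay at percentile 98.4 of the ESC list. EpiSC had a site of 2335 bp at the same place, 60877468 to 60879802, with a score of 5.80 at percentile 85.5, the second highest of EpiSC in the interval. NSC had a site of 107 bp inside it.

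Close after it lay the widest region shared by ESC and EpiSC alone, 60880451 to 60883436. It held 2 ESC sites with scores up to 9.26 (percentile 92.1) and the widest EpiSC site of the interval, 60880526 to 60883429, with a score of 5.41 (percentile 82.8). MEF had no site from 60866816 to 60888241, a stretch of 21426 bp, of which ESC covered 69.7% with 17 sites, EpiSC 49.7% with 11 and NSC 12.6% with 8. This was the longest stretch without a MEF site in any of the 3 intervals.

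Nodal had 3 regions that were open in all 4 lists, namely 60861986 to 60863638, 60887717 to 60889762 and 60905114 to 60906406. The first held the second-highest ESC site (score 10.0, percentile 94.2) and the second-highest MEF site (5.18, percentile 77.3), but an EpiSC site with a score of 1.56 at percentile 10.3. The second held the widest NSC site, with 2001 bp and a score of 5.85, and the third the highest MEF site, 60905157 to 60905583, with 5.60 (percentile 81.1). The highest EpiSC site of the interval, 60860478 to 60861343, had a score of 7.89 (percentile 94.2) and was open in ESC and MEF too.

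The lists parted in a stretch after the middle of the interval. EpiSC had no site from 60890904 to 60903114, a stretch of 12211 bp, whereas ESC had 5 there covering 20.6% of it. Among those 5 was the widest region of ESC alone, 60892210 to 60893681, whose score of 1.74 lay at percentile 17.4. The highest-scoring NSC site, 60898783 to 60899251, lay in the same stretch with a score of 10.7 (percentile 93.5) and was in no other list. Next to it a region from 60900675 to 60900970 was open in NSC and MEF alone. The most covered bin of MEF lay at the end of the interval, from 60905000 to 60909999, with 25.3% covered by MEF, 20.4% by NSC, 26.2% by ESC and 32.9% by EpiSC.

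Lefty2 and Lefty1, the antagonists, had 46 ESC sites, 26 EpiSC sites, 9 NSC sites and 11 MEF sites over 75001 bp. Of 32953 autosomal windows of that length, 2.06% held at least as many ESC sites, 10.1% as many EpiSC sites, 65.8% as many NSC sites and 56.4% as many MEF sites. By covered bases these shares were 0.877%, 1.05%, 33.5% and 25.5%. On chromosome 1 alone, by number, they were 1.33% for ESC and 4.91% for EpiSC. The 75001 bp before and after the interval held 40 and 39 ESC sites and 23 and 20 EpiSC sites, somewhat fewer than inside. By bases the drop was larger, with 32.0% and 34.3% covered in ESC against 49.7% inside, and 17.9% and 18.2% in EpiSC against 31.4%. NSC went the other way, with 26 and 25 sites in the flanks against 9 inside, and 20.7% and 23.9% of the flanking bases covered against 12.0% inside. MEF had 16 and 11 sites in the flanks.

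The Lefty interval fell into stretches with different patterns. From 182815000 to 182824999 ESC covered 80.2% and 70.2% of its 2 bins and EpiSC 40.0% and 35.0%, while MEF had no site and NSC a single one. That one, 182819098 to 182819596, had a score of 1.65 at percentile 8.1. The 3 highest ESC sites were 182833689 to 182835177 (score 13.5, percentile 98.8), 182833061 to 182833518 (10.8, percentile 95.9) and 182849759 to 182850192 (10.8, percentile 95.8). The first and second of these belonged to a region open in all 4 lists, 182833055 to 182835259, which also held the third-highest EpiSC site (6.17, percentile 87.6) and the third-highest NSC site (6.38, percentile 75.4).

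The middle of the interval was open in the pluripotent cells and nearly empty in the others. NSC had no site from 182844513 to 182861357, and MEF none from 182847543 to 182866837. Of this MEF-free stretch of 19295 bp, ESC covered 55.9% with 13 sites, EpiSC 46.7% with 10 and NSC 1.22% with 1. The 2 highest EpiSC sites of the interval lay in it. They were 182861838 to 182862669 (score 7.55, percentile 93.2) and 182854323 to 182855687 (6.41, percentile 88.8). Both were also open in ESC and in neither NSC nor MEF, and the latter lies in the widest region of ESC and EpiSC alone, 182853944 to 182855689. The widest ESC site, 182863098 to 182865686 with 2589 bp, lay in the same stretch and overlapped an EpiSC site of 3240 bp.

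A broad block from 182870139 to 182877519, 7381 bp long, was open in all 4 lists and is the widest merged region of the 3 intervals. EpiSC had there its widest site of the 3 intervals, 182870930 to 182876144, with 5215 bp. In the bin from 182870000 to 182874999 EpiSC covered 88.1% of the bases and ESC 86.6%, against 38.9% for NSC and 26.8% for MEF. It held the second-highest MEF site, 182871735 to 182872710 (6.06, percentile 84.6), and the widest NSC site, 182874344 to 182877222. After its widest site EpiSC had no other up to the end of the interval, a stretch of 8856 bp of which ESC covered 29.4% with 5 sites.

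Several Lefty sites did not follow the general order. The region from 182843765 to 182844513 held the highest NSC site of the interval (6.87, percentile 78.5) and the highest MEF site (7.31, percentile 91.6), an ESC site at percentile 39.6, and none of EpiSC. In the bin around it, from 182840000 to 182844999, ESC covered 52.4% of the bases, MEF 24.0%, NSC 14.7% and EpiSC 2.60%. Another 2 regions, 182831035 to 182831670 and 182861198 to 182861734, were open in EpiSC and NSC without ESC or MEF. Their EpiSC sites had scores of 5.67 and 5.97, at percentiles 84.6 and 86.5. The remaining region in common to all lists, 182826863 to 182827492, had sites at or below percentile 52.4 in each list.

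Tdgf1, which encodes the coreceptor, had 29 ESC sites, 22 EpiSC sites, 16 NSC sites and 7 MEF sites over 40001 bp. Of 61795 autosomal windows of that length, 0.848% held as many ESC sites or more, 1.05% as many EpiSC sites, 19.5% as many NSC sites and 47.4% as many MEF sites. By covered bases the shares were 0.710%, 0.188%, 16.4% and 45.9%. By number EpiSC ranked close to ESC here, and by bases higher in their own list than ESC in theirs. With lists of equal length NSC had 10 sites in place of 16. Both flanks of 40001 bp were less open in the pluripotent cells, with 20 sites on each side in ESC, covering 29.3% and 22.1%, and 14 and 16 in EpiSC, covering 29.2% and 21.4%.

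The latter part of the Tdgf1 interval carried most of the pluripotent openness. In the 4 bins from 110845000 to 110864999 ESC covered 72.5%, 74.8%, 71.0% and 88.8% of the bases and EpiSC 69.4%, 35.9%, 84.9% and 75.8%. NSC covered 18.2%, 17.8%, 34.1% and 6.0% of them and MEF 6.22%, 0%, 5.96% and 0%. The highest ESC site of the 3 intervals lay there, at 110848488 to 110848802, with a width of 315 bp and a score of 20.1 at percentile 99.9. It opened the widest region of ESC and EpiSC alone, which ran to 110850888 and was 2401 bp long. Immediately before it, from 110847919 to 110848360, was the highest EpiSC site of the 3 intervals, with a score of 10.4 at percentile 98.2. ESC had a site there with a score of 11.0, and NSC one of 147 bp at percentile 26.5.

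Further sites of high rank in both pluripotent lists followed, while the second-highest EpiSC site, 110834622 to 110834710 with a score of 8.20, was 89 bp wide, lay in the earlier part and was also open in ESC. The third-highest ESC site, 110851410 to 110851954 (12.0, percentile 97.5), matched the third-highest EpiSC site, 110851381 to 110851884 (7.25, percentile 92.2). The second-highest ESC site, 110864846 to 110865435 (12.2, percentile 97.7), crossed the end of the interval and was also open in EpiSC (6.17, percentile 87.6). The widest sites were 110861564 to 110864659 in ESC, with 3096 bp, and 110856209 to 110859157 in EpiSC, with 2949 bp. MEF had no site from 110846101 to 110857144. Of these 11044 bp ESC covered 77.9%, EpiSC 61.6% and NSC 31.7%.

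NSC had sites of their own in the earlier part of the Tdgf1 interval. The bin from 110835000 to 110839999 was covered to 42.2% by NSC, 9.62% by ESC and not at all by EpiSC or MEF, and it was the most covered bin of NSC in this interval. It held the second-highest NSC site, 110835721 to 110836069 (9.15, percentile 89.1), and the widest region of NSC alone, 110836242 to 110837174. The third-highest NSC site, 110828422 to 110828633 (7.49, percentile 81.9), was also in no other list. The highest NSC and MEF sites coincided at the start of the interval, in a region of all lists from 110824849 to 110825581, with 9.91 (percentile 91.5) and 6.73 (percentile 88.8). ESC were at percentile 92.8 there and EpiSC at 29.5. The other merged regions with sites of all 4 lists were 110831846 to 110832787, 110845790 to 110847546 and 110853353 to 110859228. Such regions are chains of overlapping sites. In the chain from 110845790 the MEF site, 110845790 to 110846100, overlapped ESC alone. In the chain from 110853353 the MEF site, 110857145 to 110857442, overlapped no NSC site. Neither chain held a base open in all 4 lists.

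Sharing between lists was then compared locus by locus. EpiSC sites nearly all overlapped an ESC site: 16 of 18 at Nodal (88.9%, exact 95% interval 65.3 to 98.6), 23 of 26 at Lefty (88.5%, 69.8 to 97.6) and 20 of 22 at Tdgf1 (90.9%, 70.8 to 98.9), against 45.0% of the whole EpiSC list. In the other direction 21 of 33 ESC sites at Nodal (63.6%, 45.1 to 79.6), 26 of 46 at Lefty (56.5%, 41.1 to 71.1) and 24 of 29 at Tdgf1 (82.8%, 64.2 to 94.2) overlapped an EpiSC site, against 40.1% of the whole ESC list. The 95% intervals hold counting error alone and treat neighbouring sites as if each stood by itself, which they do not. A list that covers much of an interval is hit more often by any other, so bases are set beside the sites. Of the EpiSC bases, 81.6% at Nodal, 78.6% at Lefty and 82.9% at Tdgf1 lay in ESC sites, where ESC covered 47.1%, 49.7% and 55.6% of the interval. With the highest-scoring 50% of each list, 9 of 23 ESC sites at Nodal (39.1%, 19.7 to 61.5) overlapped EpiSC, and 15 of 30 at Lefty (50%, 31.3 to 68.7), against 33.3% of the whole reduced list. At both loci the 95% interval then took in the share of the list. At Tdgf1 it was 15 of 20 (75.0%, 50.9 to 91.3), whose interval did not.

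ESC sites found in EpiSC ranked higher than those that were not. Their median score percentile was 75.5 against 53.1 at Nodal, 78.6 against 49.0 at Lefty and 85.6 against 31.8 at Tdgf1. In the whole ESC list the medians were 65.4 and 41.4, so the same order held genome-wide. The ESC sites found in EpiSC were also wider. Their median width was 555 against 387 bp at Nodal, 570 against 515.5 bp at Lefty and 674.5 against 227 bp at Tdgf1. In the whole ESC list it was 461 against 332 bp, and the part of width in the overlap was not tested. For EpiSC sites the order of the score percentiles differed by locus. At Lefty the 23 sites that overlapped an ESC site had a median percentile of 50.8 and the 3 that did not one of 84.6. At Nodal the medians were 49.6 for 16 sites and 39.3 for 2, and at Tdgf1 76.4 for 20 and 50.2 for 2. Over the 3 intervals the 59 overlapping sites had a median of 65.5 and the 7 others one of 80.8. Those 7 ranged from 16.0 to 86.5. The whole EpiSC list had 53.1 and 47.8, the order seen at Nodal and Tdgf1. The edges of overlapping ESC and EpiSC sites were compared as well: the median difference of starts was 142 bp at Nodal, 302 bp at Lefty and 214 bp at Tdgf1, against 135 bp over the 190082 pairs of the whole lists, and 10 of 21, 10 of 29 and 8 of 26 pairs began within 100 bp of each other, against 42.1% of all pairs. Single pairs did share an edge, as at 182818073, where an ESC site and an EpiSC site both began.

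In each interval NSC and MEF each had fewer sites than ESC or EpiSC. NSC were still above the median window of their own list at Nodal, 15 against 10, and at Tdgf1, 16 against 8. The shares of somatic sites in pluripotent sites lay above those of their whole lists. Of the NSC sites 11 of 15 at Nodal, 6 of 9 at Lefty and 13 of 16 at Tdgf1 overlapped an ESC site, against 25.3% of the NSC list. MEF sites did so in 4 of 8, 10 of 11 and 6 of 7 cases, against 25.0%. With EpiSC the counts were 7, 7 and 11 for NSC, against 26.7% of the list, and 5, 7 and 5 for MEF, against 26.6%. Several exact 95% intervals took in the share of the list, as for MEF in ESC at Nodal (50%, 15.7 to 84.3) and NSC in EpiSC at Nodal (46.7%, 21.3 to 73.4), and MEF in EpiSC at Nodal reached down to 24.5. With the highest-scoring 50% of each list 1 MEF site was left at Tdgf1, and it overlapped no EpiSC site. Here too bases are set beside the sites, and the part of the wide ESC cover in these counts was not tested. Of the NSC bases 66.5%, 78.8% and 65.1% lay in ESC sites, and of the MEF bases 38.8%, 79.7% and 71.2%, in intervals covered by ESC to 47.1%, 49.7% and 55.6%. MEF at Nodal were below that cover.

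Seen from the pluripotent side, the shares open in somatic cells varied by locus, and those of EpiSC sites in MEF lay below the share of the whole list at each of the 3. Of ESC sites 14 of 33 at Nodal, 8 of 46 at Lefty and 11 of 29 at Tdgf1 overlapped NSC, against 33.1% of the ESC list, and 4, 12 and 6 overlapped MEF, against 24.4%. At Lefty the share in NSC was 17.4% (7.8 to 31.4). Of EpiSC sites 7 of 18, 6 of 26 and 9 of 22 overlapped NSC, against 38.9% of the list. For MEF the numbers were 4 of 18 (22.2%), 5 of 26 (19.2%) and 4 of 22 (18.2%), against 29.1% of the EpiSC list. The exact 95% intervals of these last shares, 6.41 to 47.6, 6.55 to 39.4 and 5.19 to 40.3, held the share of the list. The EpiSC had been expanded on fibroblast feeders, whose part in these values was not tested.

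Merging the lists gave 32 regions at Nodal, 42 at Lefty and 29 at Tdgf1. A merged region joins overlapping sites in a chain, so its lists need not all share a base. Regions of ESC and EpiSC without NSC or MEF numbered 7, 14 and 9, against 5.41% of the 1134236 merged regions of the whole lists, and regions of ESC alone 8, 14 and 3, against 15.6%. EpiSC alone had 2, 1 and 2 regions, against 10.5%, the widest being 60883525 to 60883987 at Nodal, 182811347 to 182811530 at Lefty and 110842297 to 110842641 at Tdgf1. Regions of NSC, MEF or both without a pluripotent list numbered 4, 2 and 4, against 46.4%. At Lefty these were 182835373 to 182835614 in NSC (4.61, percentile 58.6) and 182847352 to 182847542 in MEF (1.84, percentile 16.1). MEF had 1 region of its own at Tdgf1, 110826549 to 110826793 (2.53, percentile 35.0), and none at Nodal. Regions of all 4 lists numbered 3, 3 and 4, against 4.05%, and not every one at Tdgf1 held a base open in all 4 lists. Regions of pluripotent lists alone made up 29 of 42 at Lefty, the longest interval, 17 of 32 at Nodal and 14 of 29 at Tdgf1, against 31.5%. Sites in no other list were 8, 14 and 3 in ESC, against 40.0% of its list, and 2, 1 and 2 in EpiSC, against 30.7%. They were 1, 1 and 3 in NSC, against 47.8%, and 0, 1 and 1 in MEF, against 43.6%. ESC sites covered 47.1%, 49.7% and 55.6% of the intervals, against 9.14% of autosomes. The part of this wide cover in the counts of regions and of sites in no other list was not tested.

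**Figure D3:**
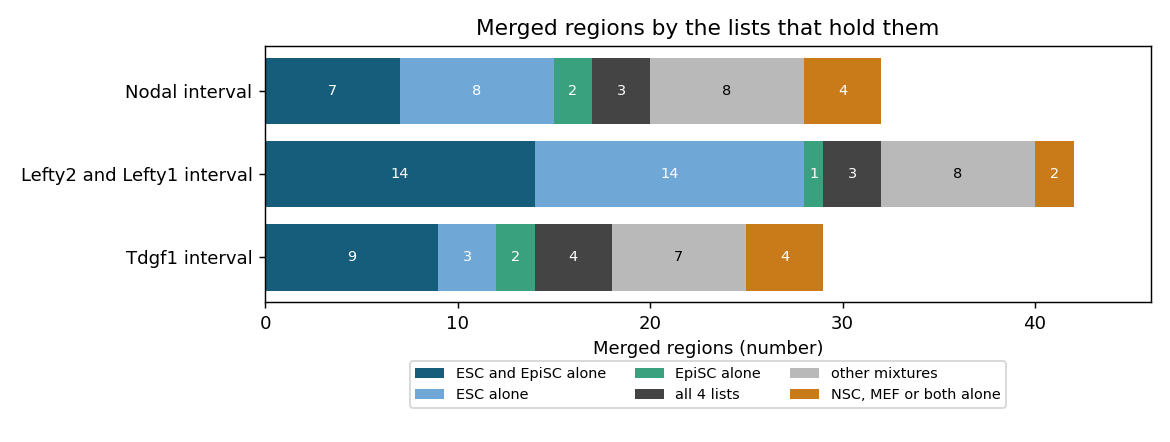
Number of merged regions in each interval by the site lists that hold them, as stacked bars on a linear axis; other mixtures are regions of a pluripotent and a somatic list that are not in all 4. Regions of ESC and EpiSC alone number 7, 14 and 9, and those of ESC alone fall from 14 at Lefty2 and Lefty1 to 3 at Tdgf1.

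At Lefty the median width lay above that of the whole list in all 4 lists, most so by rank in MEF, where it was at percentile 87.5 of the list's widths, against 83.5 in NSC, 76.0 in EpiSC and 69.7 in ESC. Sites of 1 kb or more made up 8 of 33 ESC sites at Nodal, 15 of 46 at Lefty and 6 of 29 at Tdgf1, against 10.2% of the ESC list. In EpiSC they were 5 of 18, 6 of 26 and 7 of 22, against 6.73%. NSC had 2 of 15, 3 of 9 and 1 of 16, against 6.71%, and MEF had none of 26, against 3.33%. The median width at Lefty was 538 bp for ESC sites, 526 bp for EpiSC sites, 636 bp for NSC sites and 616 bp for MEF sites. At Nodal it was 458 bp in ESC and 642 bp in EpiSC, against 399 bp in NSC and 248 bp in MEF. At Tdgf1 it was 627, 540, 409 and 298 bp in the same order.

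Scores were read as ranks within each list. ESC sites of the top 10% of scores numbered 5 of 33 at Nodal, 8 of 46 at Lefty and 10 of 29 at Tdgf1, against 10.0% of the list by definition. In EpiSC they were 1 of 18, 1 of 26 and 3 of 22, also against 10.0%, so that at Nodal and Lefty the share was under that of the list. The median percentile in ESC was 68.8 at Nodal, 64.2 at Lefty and 77.4 at Tdgf1. In EpiSC it was 49.6, 60.7 and 76.4, so that EpiSC sites at Nodal had scores at the middle of their list although they were wide and numerous. NSC sites had medians of 54.3, 58.6 and 40.9, and MEF sites of 50.6, 36.4 and 24.9. Tdgf1 had the highest median percentile of the 3 intervals in both pluripotent lists and the lowest in both somatic lists. The lists overlapped widely: at Tdgf1 the highest MEF site lay at percentile 88.8 and the lowest EpiSC site at 1.14.

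**Figure D4:**
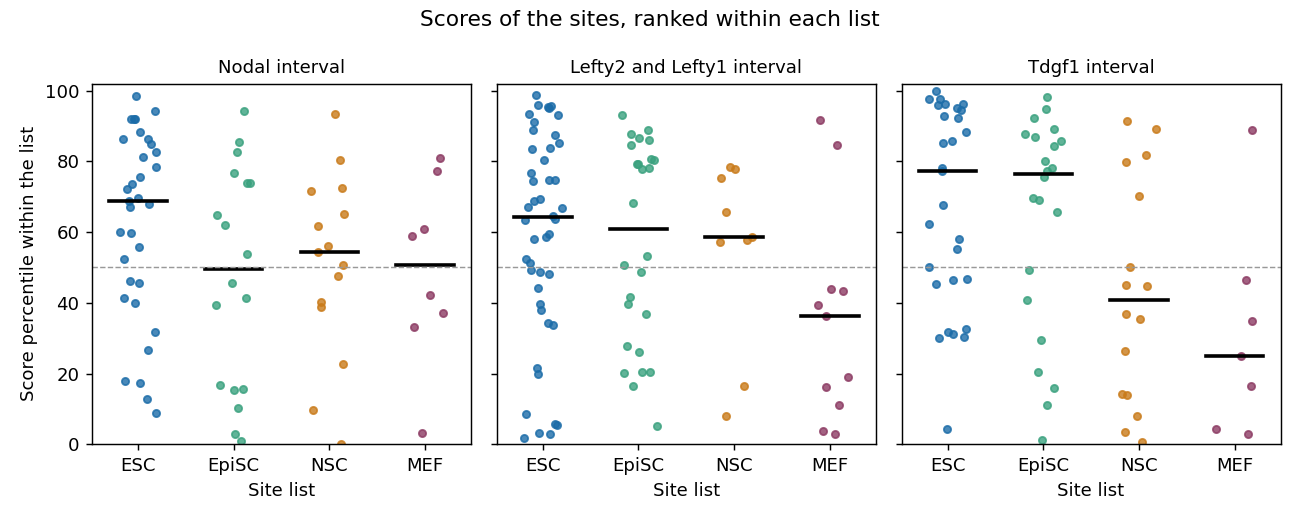
Score of each site as a percentile of its own list (0 to 100), by interval and list; points are sites, black bars medians, and the dashed line the middle of a list, with points spread sideways at random. At Tdgf1 the medians are 77.4 in ESC and 76.4 in EpiSC, against 40.9 in NSC and 24.9 in MEF.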

How the data were processed

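FAIRE-seq libraries were amplified with 15 PCR cycles, fragments of 150 to 400 bp were taken from gels and sequencing was on an Illumina Genome Analyzer, per the labels' protocols. The submitters' processing notes name CASAVA 1.8 and the mouse build mm9. The deposited lists give each site's position and the authors' own score. Not given in the sources used here are its unit, the aligner, the caller's settings, the use of the control and any pooling of replicates. A second deposited value is about 100 times the score, capped at 1000. Depth is unknown.

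Starts in the lists were taken as 0-based, and positions are printed 1-based. Overlap means at least 1 bp. Score percentiles are the percent of a list's sites at or below a score, so scores are not compared between lists. Windows as long as an interval were tiled over the 19 autosomes. Intervals of shares are exact (Clopper-Pearson). With 1 list per cell type no test was made. Named sites are the 3 highest-scoring and the widest of each list, the widest region of each list alone, the widest of ESC with EpiSC alone, regions of all lists and the most covered 5-kb bin; other named sites, the longest stretches without a site, flanks, edges, score ranks by sharing and merged regions of the whole lists were chosen after their values were seen. The genes, intervals and rules were chosen with earlier results of these data known. The planned placing of sites on genes and other pathway genes was not run, as no mm9 annotation was used here. Alternatives were midpoints, the highest-scoring 50% of each list, equal lengths of 387312 sites, merging under 200 bp, intervals changed by 5 kb, a 50% overlap, shifted windows, 1 chromosome and covered bases. Scripts ran in Python 3.11.15 with matplotlib 3.10.9, scipy 1.17.1, pandas 2.3.3 and numpy 2.4.6. Overlaps were checked against bedtools 2.31.1 and on simulated lists.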

Additional observations from a re-analysis of the deposited data

How the results depend on the processing

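No paired analysis was possible because a cell type is represented by 1 list alone, which also means that no replicate could be left out. Depth is unknown and limits the comparison of numbers between lists. The highest-scoring 50% of each list left 9 EpiSC, 9 NSC and 4 MEF sites at Nodal. At Lefty it left 30 of 46 ESC, 15 of 26 EpiSC and 2 of 11 MEF sites, and at Tdgf1 6 of 16 NSC and 1 of 7 MEF sites. The cut takes 50% of a whole list, so the number left in an interval depends on the score ranks of its sites. The shares that moved with this cut were 39.1% of ESC sites in EpiSC at Nodal and 50% of MEF in ESC at Lefty. At Tdgf1 they were 50% of NSC in ESC, 33.3% of NSC in EpiSC, 100% of MEF in ESC and 0% of MEF in EpiSC. Lists of equal length left 10 NSC sites at Tdgf1. Intervals 5 kb shorter at each end left 3 MEF sites at Nodal and put 100% of MEF sites at Tdgf1 in ESC, and merging sites under 200 bp apart put 100% of MEF sites at Lefty in ESC. By covered bases the percent of windows reaching the interval was 1.28, 21.2 and 53.2 for EpiSC, NSC and MEF at Nodal, 0.877, 1.05, 33.5 and 25.5 for ESC, EpiSC, NSC and MEF at Lefty, and 0.710, 0.188, 16.4 and 45.9 at Tdgf1. On the chromosome of the interval alone it was 1.27, 6.50 and 54.3 for ESC, EpiSC and MEF at Nodal. For ESC, EpiSC, NSC and MEF it was 1.33, 4.91, 63.2 and 52.1 at Lefty, and 1.13, 0.871, 23.5 and 59.4 at Tdgf1. The cause of the changes by covered bases and by chromosome was not tested. Shifted windows, midpoints, intervals 5 kb longer and a 50% overlap left each number within 1.5 times of its first value and each share within its 95% interval.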
